A study of Mus musculus with 6 samples.

Results

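Ferritin and cellular iron transport genes were examined in maps of NRF2 binding made by chromatin immunoprecipitation and sequencing (ChIP-seq). The 8 genes were Ftl1, Fth1, Slc40a1, Steap3, Slc11a1, Slc11a2, Tfrc and Spic. A peak was taken as theirs when the authors' annotation gave the gene's name to it, at any distance from the transcription start site (TSS). By that rule 16 of the 16057 peaks in the series belonged to them, and they fell into 8 of 14390 merged regions. Of the 8 genes, 6 had a peak in at least 1 list, and Slc40a1 and Tfrc had none. Over 21900 protein-coding genes, 31.1% had an assigned peak in at least 1 list.

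The cells were mouse embryonic fibroblasts (MEFs) of strain 129S6/SvEvTac, either GCN2-/- (GCN2 KO) or wild type (WT). GCN2 is the kinase that senses uncharged tRNA during amino acid shortage. Cells of each genotype spent 24 h in DMEM without leucine or in complete DMEM, and chromatin was precipitated with the NRF2 antibody ab62352. Each of the 4 conditions had 1 NRF2 library with its own peak list, and complete-medium input libraries, 1 per genotype, served as the controls for peak calling. The number of cultures or embryos behind each genotype was not given in the sources used here. With 1 library per condition no difference has a replicate check, and no test was made.

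List lengths were 4600 peaks in GCN2 KO without leucine, 3141 in GCN2 KO with it, 5980 in WT without leucine and 2336 in WT with it. Read depth is unknown, so list length and depth cannot be told apart. A site that a list lacks did not pass the authors' threshold in that library, and NRF2 may still have been there. A bulk list also cannot tell fewer bound cells from less binding per cell. Peak lists hold no expression values, so neither the fibroblast identity nor the GCN2 knockout could be checked in them.

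NRF2 pairs with small Maf proteins on antioxidant response elements and activates genes of antioxidant defence and iron handling. Ferritin, built from light chains (Ftl1) and heavy chains (Fth1), stores iron in a form that does not react with peroxides, and the heavy chain oxidises the iron as it enters. Iron enters most cells on transferrin through the receptor Tfrc, is reduced in the endosome by Steap3 and passes to the cytosol through Slc11a2 (DMT1). Slc11a1 (NRAMP1) moves metal ions out of the phagosome of macrophages, Slc40a1 (ferroportin) exports iron from the cell, and Spic is the transcription factor of iron-recycling macrophages of the spleen.

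Both ferritin genes had an upstream NRF2 peak in all 4 lists, near the top of each, whereas no other gene of the group had a site in all 4. The number of the 8 genes with an assigned peak at any distance was 3 in GCN2 KO without leucine, 3 in GCN2 KO in complete medium, 5 in WT without leucine and 5 in WT in complete medium. Over all protein-coding genes the share with such a peak was 13.5% in GCN2 KO without leucine, 9.89% in GCN2 KO in complete medium, 17.3% in WT without leucine and 7.93% in WT in complete medium. Each gene had at most 1 assigned peak in a list.

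The Ftl1 site stood among the 5 highest-scoring peaks of every list. Its window, 301 bases wide, lay on chromosome 7 at 45460828 to 45461128 in GCN2 KO without leucine, 45460824 to 45461124 in GCN2 KO in complete medium, 45460831 to 45461131 in WT without leucine and 45460842 to 45461142 in WT in complete medium (all coordinates are mm10). The authors' score, in whole numbers, is comparable only within a list. Ftl1 scored 974 with rank 5 in GCN2 KO without leucine, 1159 with rank 1 in GCN2 KO in complete medium, 1984 with rank 1 in WT without leucine and 1271 with rank 2 in WT in complete medium. The median scores of the lists lay between 30 and 38. The rank was therefore within the first 0.109% of each list. Ranks in lists of unequal length cannot show whether binding changed.

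The Ftl1 window was centred upstream of the Ftl1 TSS, at -1092 bp in GCN2 KO without leucine, -1088 bp in GCN2 KO in complete medium, -1095 bp in WT without leucine and -1106 bp in WT in complete medium. The annotation placed it at the transcript end of Bax, the neighbouring apoptosis gene. The 4 centres differed by 18 bp at most, and 11.7% of the 256 regions found in all 4 lists, whatever their score, had a spread that small. The median spread of those regions was 42 bp.

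The Fth1 site was also upstream and lay between ranks 19 and 63. On chromosome 19 the window ran from 9978472 to 9978772 in GCN2 KO without leucine, from 9978451 to 9978751 in GCN2 KO in complete medium, from 9978470 to 9978770 in WT without leucine and from 9978481 to 9978781 in WT in complete medium. It scored 243 with rank 63 in GCN2 KO without leucine, 360 with rank 19 in GCN2 KO in complete medium, 398 with rank 34 in WT without leucine and 373 with ranks 28 to 29 (a tie) in WT in complete medium. These ranks fell between 0.569% and 1.37% of the way down the lists. Ftl1 ranked above Fth1 in all 4.

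The file distances of the Fth1 site, between -1999 and -1969 bp, refer to an upstream non-coding start of the gene. Measured from the downstream start in the RefSeq table, at 9982646, the centres lay between -4045 and -4015 bp. The window was intergenic in every list. Its centres differed by 30 bp at most, a spread reached or undercut by 32.0% of the regions in all 4 lists.

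**Figure D1:**
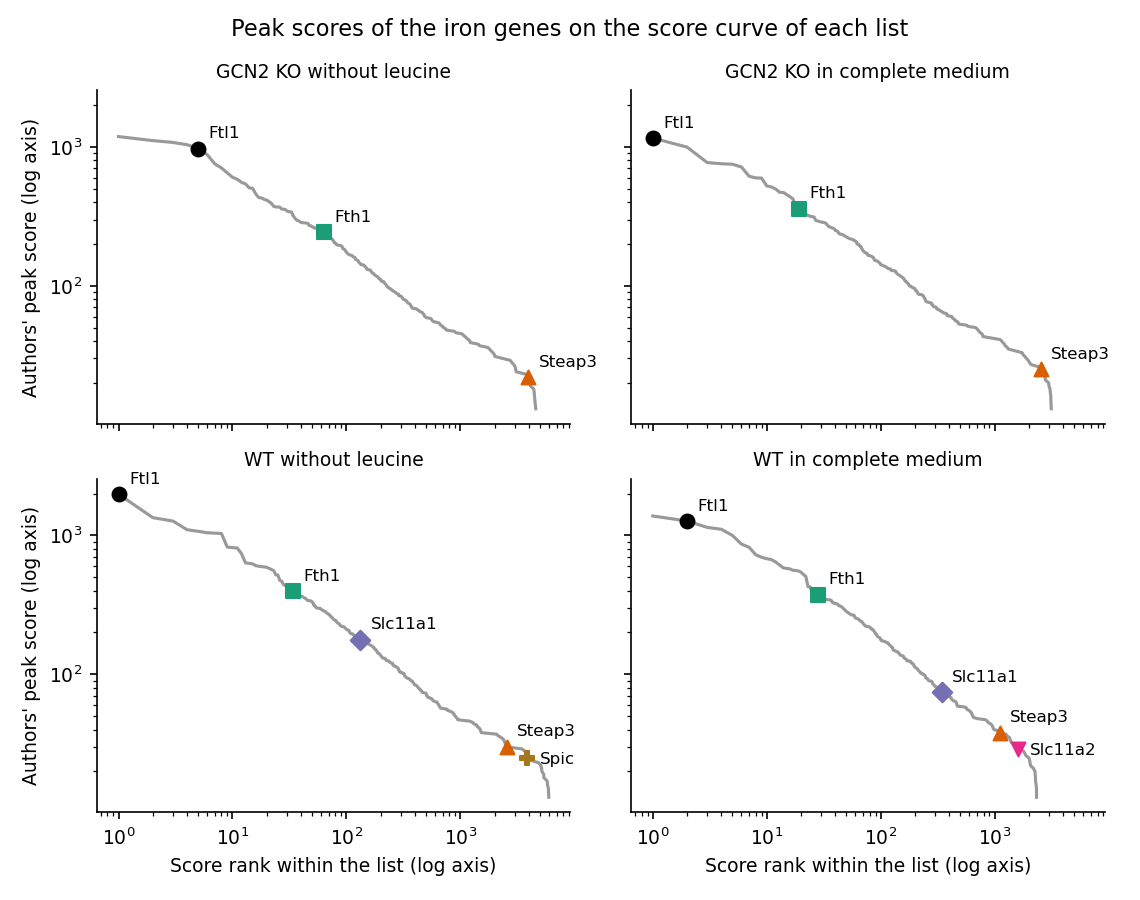
The authors' peak score (log axis) is plotted against the score rank within the list (log axis) for all peaks of each list as a grey line, with peaks assigned to the iron genes marked. Ftl1 sits between ranks 1 and 5 and Fth1 between ranks 19 and 63, the WT Steap3 peaks sit at the median scores of their lists (30 and 38), and the GCN2 KO Steap3, Slc11a2 and Spic peaks have scores of 22 to 29, below the medians of their lists.

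In score rank, the regions most like the Ftl1 site were sought among the 256 regions in all 4 lists, by the mean absolute difference in rank percent. The closest were assigned to Rxra, a nuclear receptor gene (0.0446 percentage points), and Creld1 (0.0811). The Rxra site, 29862 to 29871 bp downstream of its TSS, held rank 1 in GCN2 KO without leucine and in WT in complete medium, the lists in which Ftl1 did not. For Fth1 the closest were Runx1t1 (0.275), Cyb5b (0.332) and Tmprss6, a protease gene of systemic iron control (0.351). The Runx1t1 site lay at -321680 to -321658 bp from that gene's TSS, and the Cyb5b site at -10744 to -10723 bp.

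Slc11a1 had its peak in both WT lists and in neither GCN2 KO list. The window lay in intron 2 of 14, at chromosome 1, 74376455 to 74376755 in WT without leucine and 74376457 to 74376757 in WT in complete medium, so the centres were 2 bp apart. Of the 535 regions shared by the WT lists with 1 peak in each, whatever their score, 6.92% had centres that close. The median spread of the 535 was 24 bp, and regions of like score were not compared. It scored 177 in WT without leucine, with ranks 132 to 133, and 74 in WT in complete medium, with ranks 344 to 358. These are 2.21% of the way down the list without leucine and 14.7% of the way down the complete-medium list. The centre was 1402 bp downstream of the TSS in WT without leucine and 1404 bp in WT in complete medium.

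The nearest peak to Slc11a1 in the GCN2 KO lists was 487 kb from the gene without leucine and 483 kb from it in complete medium. Of the 100 WT peaks without leucine next to it in score order, 50 above and 50 below with scores of 149 to 239, 79 (79.0%) overlapped a GCN2 KO peak without leucine and 81 (81.0%) overlapped a GCN2 KO peak in complete medium. Most WT peaks scored like Slc11a1 without leucine were thus in each GCN2 KO list, and Slc11a1 was not. In complete medium the 100 WT peaks next to it scored 69 to 82, and 33 (33.0%) were in GCN2 KO without leucine and 24 (24.0%) in GCN2 KO in complete medium, so there most were absent from each GCN2 KO list, as Slc11a1 was. The planned measure was the whole score decile, which without leucine ran from 64 to 1984. There the shares of WT peaks without leucine were 55.7% for GCN2 KO without leucine and 52.3% for GCN2 KO in complete medium. In WT in complete medium the decile ran from 60 to 100. Its shares were 38.0% for GCN2 KO without leucine and 32.1% for GCN2 KO in complete medium. The neighbours in score order were chosen after the data were seen.

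**Figure D2:**
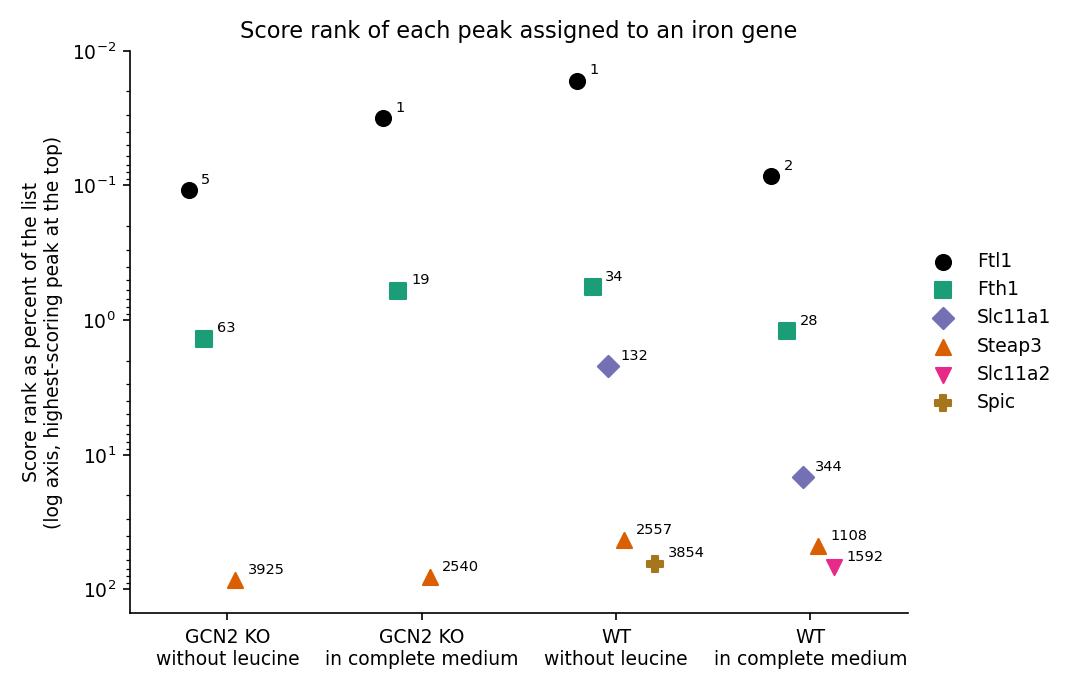
Each point is a peak assigned to an iron gene, placed by its score rank as a percent of the list (log axis, highest-scoring peak at the top) and labelled with the rank. Ftl1 and Fth1 are present in all 4 lists, Slc11a1 only in the WT lists at ranks 132 and 344, the WT Steap3 peaks near the middle of their lists, and the GCN2 KO Steap3, Slc11a2 and Spic peaks between 64.4% and 85.3% of the way down.

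Steap3 was assigned a peak in each list, but at 3 separate sites. In GCN2 KO without leucine the window lay in intron 2 of 5 at chromosome 1, 120268275 to 120268575, 2657 bp downstream of the TSS used in the file. It scored 22, with ranks 3925 to 3990. In GCN2 KO in complete medium it lay at 120199222 to 120199522 in an Lx8 LINE repeat, 65908 bp from the TSS used in the file and 26.9 kb past the gene's 3' end, with a score of 25 and ranks 2540 to 2585.

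In WT cells the Steap3 peak was at the promoter in both media. The window ran from 120271242 to 120271542 without leucine and from 120271357 to 120271657 in complete medium, centred at -310 bp without leucine and -425 bp in complete medium. It scored 30 without leucine, with ranks 2557 to 3469, and 38 in complete medium, with ranks 1108 to 1254. The centres were 115 bp apart, and 94.6% of the regions shared by the WT lists were at most that far apart. In the score deciles of these peaks, 9 of 598 (1.51%) peaks without leucine were shared with the complete-medium list, and 16 of 234 (6.84%) in complete medium were shared with the list without leucine.

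The Steap3 promoter is printed because its WT peak without leucine was the only window of the group that overlapped a RefSeq promoter window, from 250 bp before to 50 bp after a start. The 250 bases upstream of the start are given 5' to 3' on the minus strand, build GRCm38.p6 (the assembly of mm10), chr1:120271081-120271330, from RefSeq. Capitals mark the 89 bases inside the WT peak window, -250 to -162 bp from the TSS.
Steap3: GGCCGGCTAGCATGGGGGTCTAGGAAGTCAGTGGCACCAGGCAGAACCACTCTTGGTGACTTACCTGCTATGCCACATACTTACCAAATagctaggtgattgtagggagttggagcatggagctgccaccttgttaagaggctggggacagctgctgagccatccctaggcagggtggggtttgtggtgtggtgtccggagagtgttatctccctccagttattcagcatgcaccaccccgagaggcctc

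The core of the antioxidant response element, TGACNNNGC on either strand, had 0 matches in those 89 bases, and the AP-1 type motif TGANTCA also had 0. RefSeq promoter windows were at hand for Ftl1, Fth1, Steap3, Slc11a1, Tfrc and Spic, 11 windows in all. None of the 11 held TGACNNNGC, which 4071 of all 32851 promoter windows (12.4%) held, and none held TGANTCA, found in 2565 (7.81%). The core followed by an A was likewise in 0 of the 11 and in 999 (3.04%) of all. The Ftl1 and Fth1 peak windows lay outside these promoter windows, by at least 688 and 1569 bp, so their own bases were not searched. Slc40a1 and Slc11a2 had no entry.

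**Figure D3:**
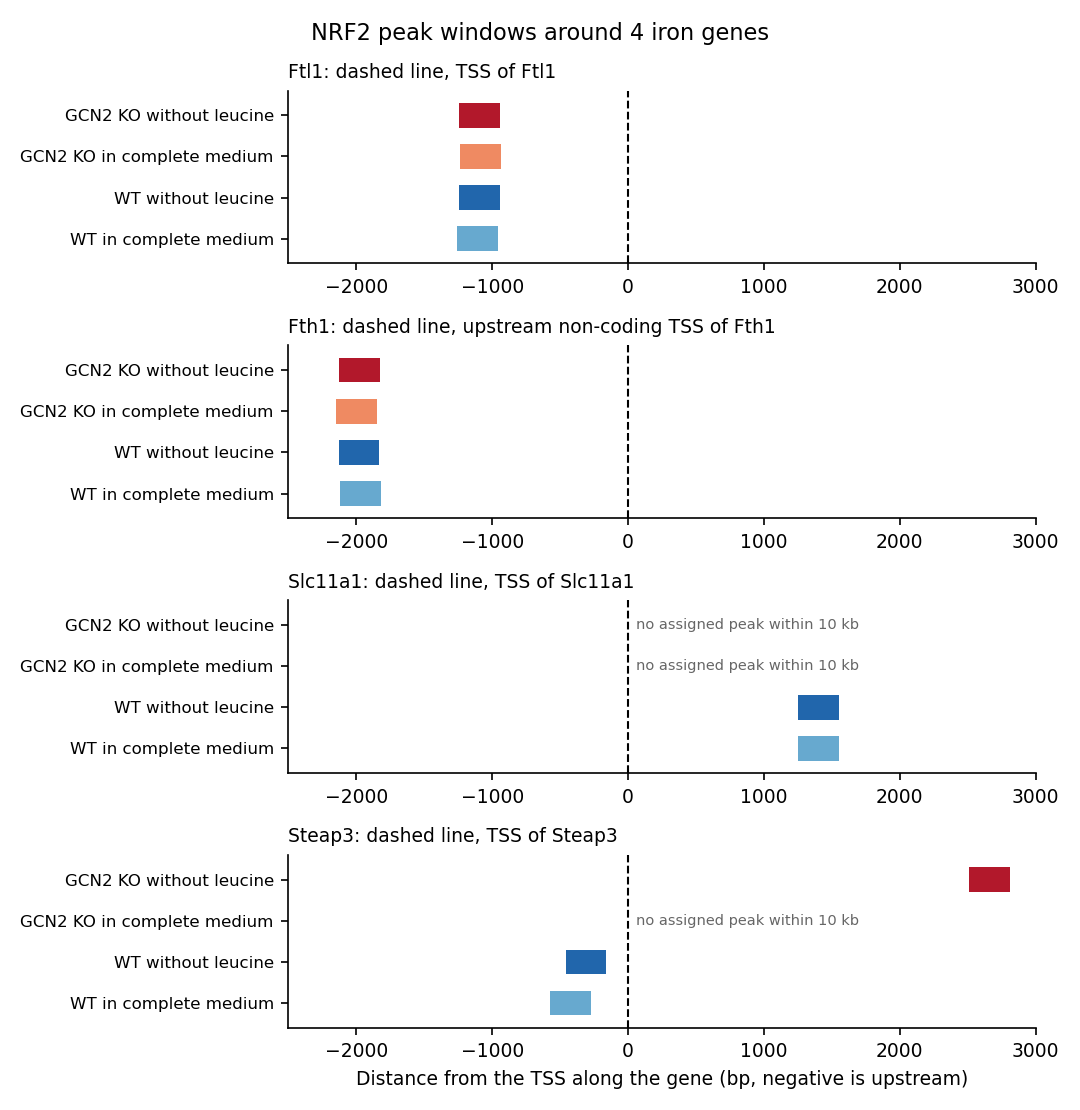
Bars show the peak windows of Ftl1, Fth1, Slc11a1 and Steap3 in each list by distance from the TSS along the gene (bp, negative is upstream, dashed line at the TSS that the files used). The Ftl1 and Fth1 windows are stacked in all 4 lists near -1092 and -1978 bp, the Slc11a1 window is drawn for WT alone at about 1402 bp, and the GCN2 KO Steap3 window without leucine lies at 2657 bp, apart from the WT windows at -310 and -425 bp.

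Slc11a2, the endosomal iron transporter gene, had a peak in WT in complete medium alone. It lay in exon 10 of 16 at chromosome 15, 100403123 to 100403423, 19782 bp downstream of the TSS, with a score of 29 and ranks 1592 to 1784 of 2336. The nearest peak to the gene was 63.0 kb away in GCN2 KO without leucine, 593 kb in GCN2 KO in complete medium and 210 kb in WT without leucine.

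Spic had a peak in WT without leucine alone. The window was intergenic, at chromosome 10, 88690957 to 88691257, at -8084 bp from the TSS, with a score of 25 shared by ranks 3854 to 4125 of 5980. A further site, at -25926 to -25877 bp from the Spic TSS, was assigned to Gm4925 and so was not counted for Spic. It was in 3 lists, with rank 1061 (score 44) in GCN2 KO without leucine, rank 175 (score 154) in WT without leucine and rank 609 (score 54) in WT in complete medium. GCN2 KO in complete medium had no peak there, and its nearest peak lay 160 kb from Spic.

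Slc40a1, the iron exporter gene, had no peak assigned to it, nor any peak within 50 kb of either end of the gene. The nearest was 4458 kb away in GCN2 KO without leucine, 2820 kb in GCN2 KO in complete medium, 364 kb in WT without leucine and 2119 kb in WT in complete medium. For Tfrc, the transferrin receptor gene, the nearest peak was 82.1 kb away in GCN2 KO without leucine, 60.7 kb in GCN2 KO in complete medium, 514 kb in WT without leucine and 977 kb in WT in complete medium, each assigned to another gene.

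Within 50 kb of a TSS of the 8 genes there were 5 peaks in GCN2 KO without leucine, 2 in GCN2 KO in complete medium, 9 in WT without leucine and 6 in WT in complete medium, whichever gene they were assigned to. The share of all genes with a peak within 50 kb was not computed, and the lists differ in length, so these counts have no background. Of these peaks, 3 in GCN2 KO without leucine, 2 in GCN2 KO in complete medium, 5 in WT without leucine and 5 in WT in complete medium carried the name of the gene itself. Besides the Gm4925 site, the others were assigned to Ntf5 in GCN2 KO without leucine and to Nucb1, Incenp and Catip in WT without leucine, each in that list alone. They lay at 49908 bp (Ntf5) and -42552 bp (Nucb1) from the Ftl1 TSS, -41402 bp (Incenp) from the nearest Fth1 TSS and -27452 bp (Catip) from the Slc11a1 TSS.

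**Figure D4:**
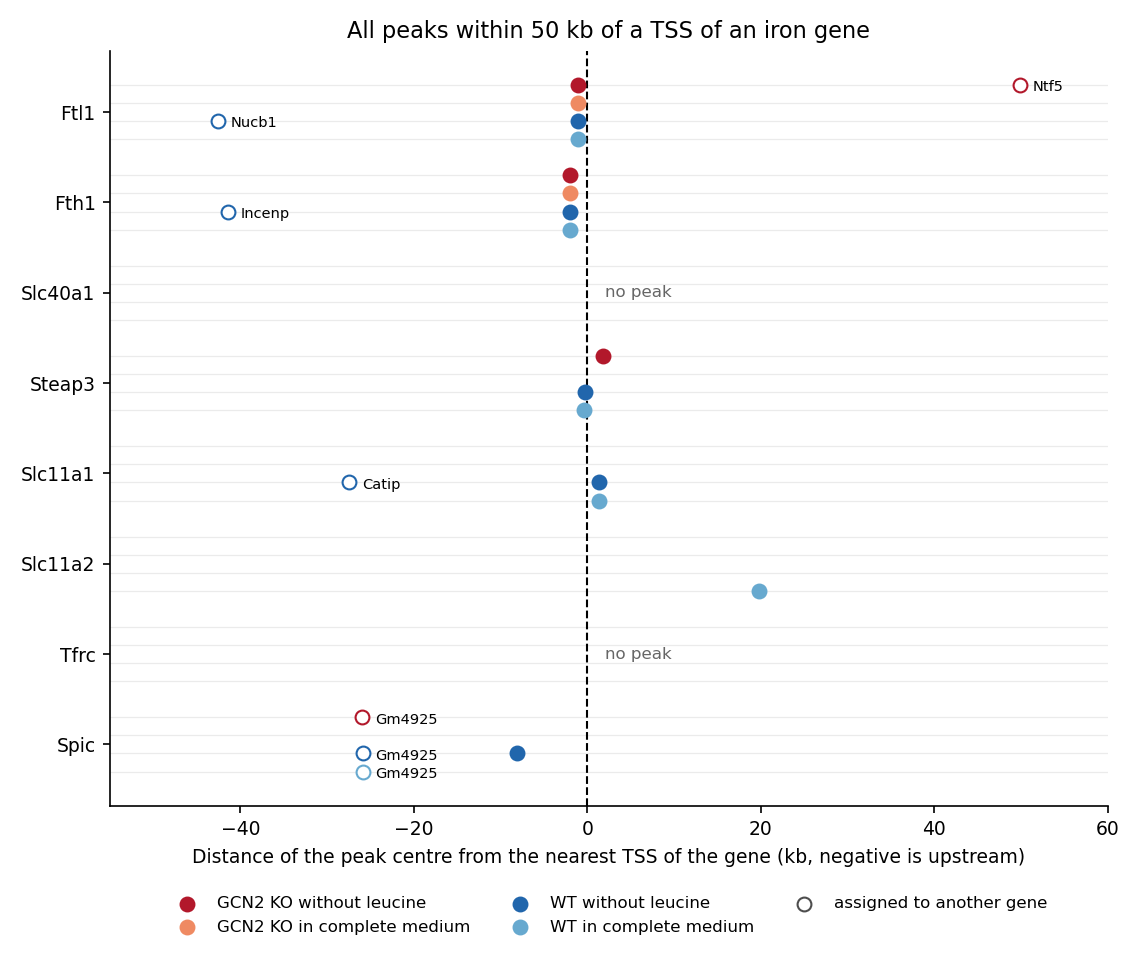
Every peak within 50 kb of a TSS of the 8 genes is placed by the distance of its centre from the nearest TSS of the gene (kb, negative is upstream), with a row for each list. Filled points were assigned to the iron gene, open points to the gene named beside them. The Gm4925 site stands upstream of Spic in 3 lists, and Slc40a1 and Tfrc have no peak. The GCN2 KO Steap3 peak in complete medium is not drawn, since it lies over 50 kb from every Steap3 TSS.

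Across the design, 2 of the 8 member regions were in all 4 lists (Ftl1 and Fth1), 2 were in both WT lists alone (Slc11a1 and the Steap3 promoter) and 4 were in 1 list. Over all 14390 regions, 1.78% were in all 4 lists, 1.04% in both WT lists alone and 93.5% in 1 list. The shares of all regions here and in the comparisons below cover every score. Of the peaks next to Ftl1 in score order, up to 50 on each side, at least 94.0% were in each other list. For the peaks next to Fth1 the share was at least 89.0%. Most peaks scored like the ferritin sites thus recurred in each other list, as these sites did. The neighbours were chosen after the data were seen, and their share in all 4 lists was not computed. No member region was confined to both GCN2 KO lists, to both lists without leucine or to both complete-medium lists. The shares of all regions in those pairs alone were not computed, so this absence has no background and is not a result about the group.

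Leucine withdrawal in WT cells was compared over the 6 member regions that either WT list held. Without leucine alone there was 1 (Spic), in complete medium alone 1 (Slc11a2), and 4 were in both lists (Ftl1, Fth1, Slc11a1 and Steap3). Over all regions of the WT lists, 70.0% were in the list without leucine alone, 23.1% in the complete-medium list alone and 6.89% in both. In lists of equal length, 2336 peaks each, WT without leucine lost Spic and the Steap3 promoter. That left 0 member regions without leucine alone, 2 in complete medium alone (Slc11a2 and the Steap3 promoter) and 3 in both. Shares over all regions were not computed at equal length. The equal-length counts here and in the comparisons below therefore have no background and are not a result about the group.

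In GCN2 KO cells leucine withdrawal involved 4 member regions. The intronic Steap3 site was in the list without leucine alone, the Steap3 site in the LINE repeat was in the complete-medium list alone, and Ftl1 and Fth1 were in both. All regions of the KO lists divided into 57.0% without leucine alone, 37.1% in complete medium alone and 5.90% in both. At equal length neither Steap3 site was kept, and both lists held Ftl1 and Fth1 alone.

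GCN2 KO was set against WT in complete medium over 6 member regions. The GCN2 KO list alone held 1 (Steap3 in the LINE repeat), the WT list alone held 3 (the Steap3 promoter, Slc11a1 and Slc11a2), and 2 were in both (Ftl1 and Fth1). The shares of all regions were 54.3% in GCN2 KO alone, 38.6% in WT alone and 7.14% in both. At equal length the Steap3 site in the LINE repeat was lost from GCN2 KO, and the other 5 regions were placed as before.

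Without leucine the same contrast also covered 6 member regions. The intronic Steap3 site was in GCN2 KO alone, the Steap3 promoter, Slc11a1 and Spic were in WT alone, and Ftl1 and Fth1 were in both. Over all regions 40.8% were in GCN2 KO alone, 54.5% in WT alone and 4.71% in both. In lists of equal length this contrast kept 1 member region in a single list, the Slc11a1 intron in WT, since Steap3 and Spic lay below the length limit. The 4 comparisons share lists with each other, and none is independent of the rest.

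The windows of the group were also read for features that did not enter their choice. The GC fraction ran from 0.482 to 0.595 over the 3 windows of GCN2 KO without leucine, from 0.505 to 0.585 over the 3 of GCN2 KO in complete medium, from 0.488 to 0.588 over the 5 of WT without leucine and from 0.505 to 0.581 over the 5 of WT in complete medium. The list medians lay between 0.512 and 0.522. Ftl1 had the highest GC fraction of the group in each list, between 0.581 and 0.595. Its CpG fraction was 0.0300 in GCN2 KO in complete medium and 0.0333 in each of the other lists, against a median of 0.0133 in every list. The Fth1 window had a CpG fraction of 0.00667 in each list except GCN2 KO in complete medium, where it was 0.0133. A repeat element was annotated in 1 window of the group, the Steap3 window of GCN2 KO in complete medium. That list held 3 group windows, and repeats made up 26.7% of all its windows. The other lists had no group window in a repeat, with repeats in 25.1% to 30.0% of their windows. The group windows fall into 8 regions, too few to read against these shares.

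A further 40 genes of iron and heme handling were counted beside the group, with all 40 symbols matched. The 40 were chosen with earlier results of these data known, so their counts beside the shares of all genes are descriptions and show no enrichment. A peak within 10 kb was assigned to 3 of them in GCN2 KO without leucine, 4 in GCN2 KO in complete medium, 4 in WT without leucine and 4 in WT in complete medium. Over all protein-coding genes that share was 4.03% in GCN2 KO without leucine, 3.03% in GCN2 KO in complete medium, 6.17% in WT without leucine and 2.28% in WT in complete medium. In total 8 of the 40 had such a peak in any list, against 12.4% of all protein-coding genes. At any distance a peak was assigned to 6 of the 40 in GCN2 KO without leucine, 6 in GCN2 KO in complete medium, 7 in WT without leucine and 5 in WT in complete medium. The shares of all genes at any distance were 13.5% in GCN2 KO without leucine, 9.89% in GCN2 KO in complete medium, 17.3% in WT without leucine and 7.93% in WT in complete medium. Over any list 9 of the 40 had a peak at some distance and 31 had none, against a share of 31.1% of all genes with a peak.

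Hmox1, which breaks down heme and frees its iron, had a pair of upstream sites in all 4 lists. The farther site ranked 14 in GCN2 KO without leucine, 14 in GCN2 KO in complete medium, 13 in WT without leucine and 82 in WT in complete medium, and the nearer site ranked 20 in GCN2 KO without leucine, 64 in GCN2 KO in complete medium, 72 in WT without leucine and 154 in WT in complete medium. The site of the heme transporter gene Slc48a1 ranked 40 in GCN2 KO without leucine, 29 in GCN2 KO in complete medium, 8 in WT without leucine and 8 in WT in complete medium. These and the ferritin genes were the iron genes of either set with a site within 10 kb in all 4 lists.

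The remaining genes of the 40 with a peak within 10 kb had it in 1 or 2 lists. Bach1, a repressor at NRF2 sites, had it in both complete-medium lists. Cd163, a scavenger receptor gene, was in GCN2 KO without leucine, and Tfr2, a transferrin receptor gene of hepatocytes and erythroid cells, in GCN2 KO in complete medium. Slc22a17 and Flvcr2 were in WT without leucine, and Tmprss6 in WT in complete medium. Of these single-list peaks, Tmprss6 ranked 698, Slc22a17 881, Tfr2 2096, Flvcr2 2486 and Cd163 3090.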

How the data were processed

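Single 50 bp reads were obtained from NRF2 ChIP-seq libraries of GCN2 KO and WT MEFs, per the labels' protocols. BWA 0.7.12, MACS2 2.1.0 and HOMER 4.7 were used on mm10, per the submitters' processing notes, with settings not given in the sources used here. Windows of 300 bp were annotated by HOMER, and each library was called against the complete-medium input of its genotype, also without leucine, per the file headers. The deposited peak score is the authors' whole number, at least 13, with a source column not given in the sources used here. It was used only to rank or filter within a list. Ties share the first rank, and where a list was shortened they kept the file's order. CpG and GC content were deposited as a fraction of the window, per the file headers. Distances to the TSS are the authors' own, per the file headers.

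Peaks overlapping by at least 1 bp were merged into regions over the 4 lists. The background was 21900 protein-coding genes of the GRCm38.p6 table, matched by gene identifier, or all regions. The genes and lists were chosen with earlier results of these data known. Named were the 8 genes, genes of the 40-gene list with a peak within 10 kb, the 3 genes closest in rank to each ferritin site, and genes given a peak within 50 kb of the 8. A gene that meets these rules is not reported here. No test was made. The code was tested on simulated lists (Python 3.11.15, pandas 2.3.3). A planned motif search in the peak windows was not run, since it needs the genome sequence, and the RefSeq promoter windows were searched instead. Depth is unknown, so no interval is given.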

Additional observations from a re-analysis of the deposited data

How the results depend on the processing

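Of 84 values recomputed under other settings, 57 stayed within 1.5 times the value given. Counts of peaks and of genes mostly repeat each other, and WT in complete medium, the shortest list, could not change at equal length. The 57 are therefore no measure of stability. Ftl1 and Fth1 were in all 4 lists and Slc11a1 in both WT lists alone under every overlap and list-length setting run. Their ranks of 358 or better, and centres at most 30 bp apart, meant that no such setting could drop them. The nearest GCN2 KO peak to Slc11a1 lay 483 kb or more away, so none could add it there. The outcome was thus fixed in advance and is no check. In the higher-scoring 50% of each list, peaks and genes numbered 2 in each GCN2 KO list and 3 in each WT list. Regions in both WT lists alone then numbered 1, those in a single list 0, and those in 1 list of a comparison 0 for leucine withdrawal in WT and in GCN2 KO and 1 for both genotype contrasts. The Steap3 peaks of both WT lists are tied across the midpoints of their lists, so their loss there rests on the order of the file. At equal lengths of 2336 peaks, WT without leucine kept 3 peaks and genes, regions in both WT lists alone numbered 1, those in a single list 2, and those in 1 list of a comparison 0 for leucine withdrawal in GCN2 KO and 1 for GCN2 KO against WT without leucine. Shares over all regions were not recomputed in the shortened lists. Within 1 kb of the TSS, peaks and genes numbered 0 in both GCN2 KO lists and 1 in each WT list, the Steap3 promoter. With any peak within 50 kb of a TSS, peaks numbered 5 in GCN2 KO without leucine and 9 in WT without leucine, with no share over all genes computed. A reciprocal overlap of 50% and widening by 500 bp moved no count by over 1.5 times. Alternatives of the motif search in windows were not run. No paired analysis was possible because each condition had 1 library. Unknown depth limits every statement about a missing peak, most for Slc11a2, Spic and the GCN2 KO Steap3 sites, which scored below the medians of their lists.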

Other observations

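Outside the group and beyond 10 kb, a further iron gene with a site in all 4 lists was Tmprss6, with the site in an intron on chromosome 15, 18060 to 18095 bp downstream of the TSS. It ranked 44 in GCN2 KO without leucine, 32 in GCN2 KO in complete medium, 20 in WT without leucine and 20 in WT in complete medium. Tmprss6 encodes matriptase 2, which lowers hepcidin in the liver. Bach1 had another intronic site, 14190 to 14242 bp from its TSS, in 3 lists, with rank 2017 in GCN2 KO in complete medium, 222 in WT without leucine and 279 in WT in complete medium. GCN2 KO without leucine had no peak there. The Bach1 site at 1098 to 1167 bp from the TSS ranked 1290 in GCN2 KO in complete medium and 170 in WT in complete medium. Aco1, an iron regulatory protein gene, had no peak nearer than 41443 bp to its TSS.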
